A study of Mus musculus with 10 samples.

Results

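The proteasome genes of the mouse were described in livers of mice with pancreatic tumours. Members were taken by symbol: Psma, Psmb, Psmc, Psmd, Psme, Psmf or Psmg followed by a number, without the immunoproteasome genes Psmb8, Psmb9 and Psmb10 and without pseudogenes. This gave 45 of the 24972 genes in the deposited table, of which 16 encode the 20S core, 20 the 19S cap and its assembly chaperones, and 9 the activators and regulators. The livers came from mice that bore a tumour of a KPC-derived line of pancreatic ductal adenocarcinoma, each line being grown from a single clone. The T cell-low group (4 libraries) carried line 6419c1, the T cell-high group (6 libraries) carried line 6555c3, so that each group stands for 1 clone, and clone and T cell class cannot be told apart. The genotype label is WT in all libraries. Age, sex and strain of the mice are not stated in the labels, and livers without a tumour were not analysed here. The comparison asks how liver RNA differed with the T cell content of the tumour.

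The proteasome is the large protease that degrades proteins marked with ubiquitin. Its barrel, the 20S core, is a stack of alpha and beta rings with the cutting sites inside, and the 19S cap on its end binds ubiquitin chains, removes them and unfolds the substrate. Other activators, among them PA28, open the core without ubiquitin, and interferon induces immunoproteasome forms that take the place of the catalytic beta subunits, which changes the peptides cut for antigen presentation. Hepatocytes use it in the turnover of their own enzymes.

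Values are scaled counts, the authors' gene counts brought to a common depth, from a kit that reads the 3′ ends of transcripts. Scaled totals ran from 7000659 to 8257373 per library. A gene with a mean of at least 10 was tested with limma on log2(scaled count + 1), and a gene with an adjusted p below 0.05 is called lower or higher. A log2 difference is the T cell-low minus the T cell-high value, with its standard error (SE). The labels do not say that each library is a separate mouse, so p-values reflect only library-to-library spread, part of which may be technical. In whole liver, fewer cells of a type and less RNA per cell cannot be told apart. Summed markers of hepatocytes, the main cells of the labelled tissue, reached 258265 to 576082 scaled counts. Features of the libraries touch the results: T cell-low 1 often lay among the T cell-high values, and T cell-high 2 and 4 often lay apart from T cell-high 1, 3, 5 and 6. A fit with that set of 4 libraries as a covariate was added after seeing the data; its group difference compares the T cell-low libraries with T cell-high 2 and 4 only.

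Most proteasome genes had lower values in T cell-low livers, and few passed the test. Of the 43 members tested, 7 were called lower (16.3%, against 7.39% of the 11110 genes tested), 1 was called higher (2.33%, against 5.39%), and 35 did not pass. The lower ones were Psma3 and Psmb7 of the core, Psmc2, Psmd1 and Psmd5 of the cap, and the PA28 genes Psme1 and Psme2. The higher one was Psmd9, an assembly chaperone. In either direction, 12.8% of all genes tested were called. The fitted difference was below 0 for 36 members (83.7%, against 49.8% of all genes tested), with a median of -0.57 on the log2 scale against 0.00 over all genes tested. The 2 members not tested were Psma8, a testis form of an alpha subunit (1.40 to 7.52 scaled counts in T cell-low, against 5.23 to 12.5 in T cell-high livers), and Psmb11, the beta subunit of the thymus (0 to 0.859 and 0 to 1.91).

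**Figure D1:**
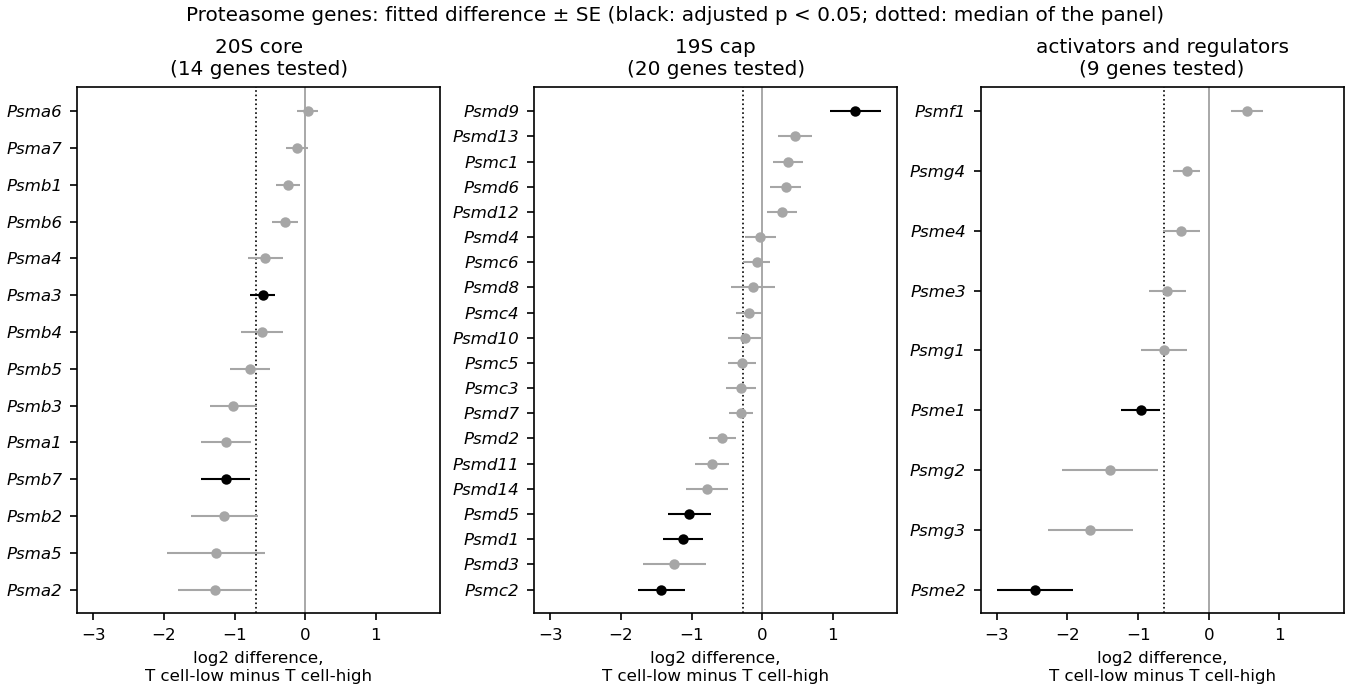
Fitted log2 difference (T cell-low minus T cell-high, points) with its SE (bars) for the 43 proteasome genes tested, in panels for core, cap, and activators and regulators; black points have an adjusted p below 0.05 and dotted lines mark the panel medians of -0.70, -0.27 and -0.63. Psme2 lies farthest to the left at -2.46 and Psmd9 farthest to the right at 1.32.

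These calls rested on few libraries. Leaving out T cell-low 1 raised the number called lower to 21, and leaving out T cell-high 2 raised it to 13. It was 6 when T cell-high 4 was left out and 2 when T cell-low 3 was. Omitting any one of T cell-high 1, 3, 5 or 6 left 1, namely Psme2. Without T cell-low 2 limma called 0 lower and 0 higher (13 and 1 at an unadjusted p below 0.05), and without T cell-low 4 the counts were again 0 and 0 (16 and 2 unadjusted). The number called lower over all genes moved the same way. With all libraries it was 821 of 11110, without T cell-low 1 it was 1911 of 11100, and without T cell-high 2 it was 1311 of 11122. Omitting any one of T cell-high 1, 3, 5 or 6 left 234 to 266. It was 68 of 11102 without T cell-low 2 and 107 of 11090 without T cell-low 4. Under the set covariate limma called 0 members (6 lower and 1 higher at an unadjusted p below 0.05, against 19 and 2 without it) and 0 of all genes. Of all 11110 genes, 1788 had an unadjusted p below 0.05 in either direction under the covariate. Without it, 2055 were lower and 1775 higher. The unadjusted counts given below for single classes are to be read against these 2 numbers. All 8 called members kept the sign of their difference in each of the 20 alternative settings. Psme2 was called in 8 of the 10 runs that left out a library, Psmc2 in 4, Psmb7, Psmd1 and Psmd5 in 3 each, and Psma3, Psme1 and Psmd9 in 2 each.

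Fitted differences were more negative in the core than in the cap. The median log2 difference was -0.70 over 14 core genes, -0.27 over 20 cap genes and -0.63 over 9 activators and regulators. Within single libraries the median over core genes, set against their mean in T cell-high livers, was 0.00, -1.31, -0.48 and -0.84 for T cell-low 1 to 4. It was -0.28 to 0.16 for the T cell-high livers. The cap had -0.04, -0.39, -0.13 and -0.40 for T cell-low 1 to 4, against -0.06 to 0.22 for the T cell-high livers. Core and cap alike therefore lay below all T cell-high libraries in T cell-low 2, 3 and 4, and inside their range in T cell-low 1. The activators and regulators had the same pattern, with -0.18, -0.66, -0.95 and -0.99 for T cell-low 1 to 4 against -0.44 to 0.22. The core minus the cap was 0.04, -0.92, -0.35 and -0.44 for T cell-low 1 to 4, against -0.50 to 0.22 for the T cell-high libraries. These ranges overlap: T cell-low 1 lay inside the T cell-high range, and T cell-high 2, at -0.50, lay below T cell-low 1, 3 and 4. The set covariate gave medians of -0.27 for the core, -0.25 for the cap and -0.35 for activators and regulators, so that core and cap then lay close together.

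**Figure D2:**
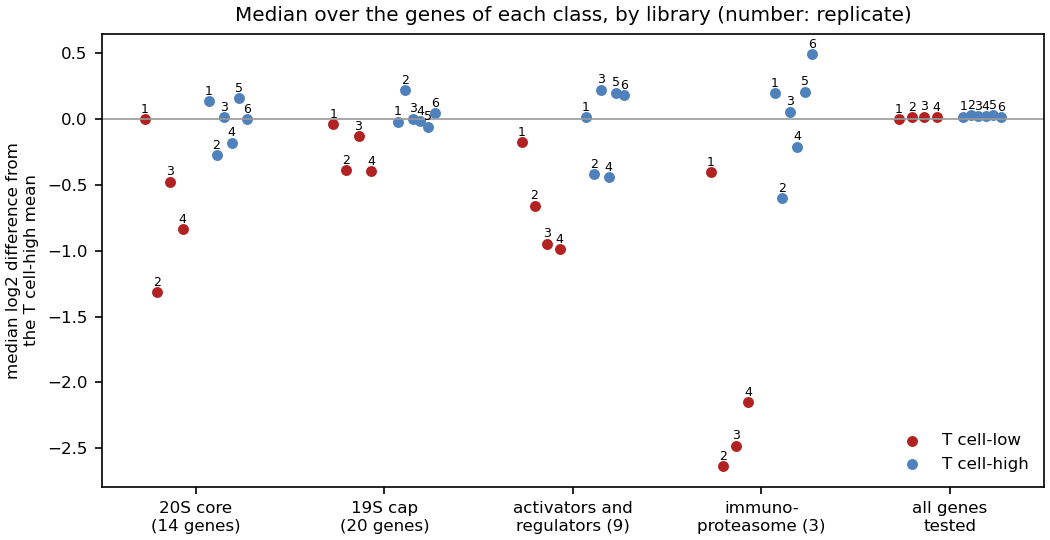
Median over the genes of a class of the log2 difference from their mean in T cell-high livers (1 point per library, labelled by replicate), for core, cap, activators and regulators, the 3 immunoproteasome genes and all genes tested. T cell-low 2 has the lowest core value (-1.31), T cell-low 1 lies near 0 (0.00 for the core), and the T cell-high libraries span -0.28 to 0.16 for the core.

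The alpha subunits form the outer rings of the core and its gate. Of the 7 tested 1 was called lower and 0 higher by limma (4 and 0 at an unadjusted p below 0.05), with a median of -0.60. Psma3 (chromosome 12, 70974621 to 70996347) had 960, 631, 788 and 661 scaled counts in T cell-low 1 to 4. In T cell-high livers it ranged from 982 to 1248 with a median of 1185. All 4 T cell-low values lay below all 6 T cell-high values. The means were 760 ± 149 (SD, n = 4) and 1141 ± 109 (SD, n = 6), 1.52-fold higher in T cell-high livers on the fitted scale (log2 difference -0.60, SE 0.18, adjusted p = 0.0441 by limma). Near its 3′ end (the last 400 bases), 35.9% of all 50-base words also occur in Gm13835, Gm5406 or Gm4742, so reads of these copies may be mixed with its own.

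The other alpha subunits spanned a wide range. Psma2 had the lowest difference of the class (-1.27, SE 0.52, adjusted p = 0.107 by limma) and did not pass. It had 744, 171, 272 and 519 scaled counts in T cell-low livers, against 271 to 1529 with a median of 1254 in T cell-high livers. Its 2 low T cell-high values were those of T cell-high 2 (271) and 4 (509), and the groups overlapped. Its difference was -0.02 under the set covariate. Psma6 had the highest difference (0.03, SE 0.15, adjusted p = 0.891). Its values were 967, 742, 898 and 916 in T cell-low, against 826 to 877 with a median of 858 in T cell-high livers. The highest T cell-high value of Psma6 was 1.06 times the lowest, the narrowest spread of the 43 members tested. Psma1 (-1.12, adjusted p = 0.0516), Psma4 (-0.57), Psma5 (-1.26) and Psma7 (-0.11) did not pass.

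The beta subunits form the inner rings, and the products of Psmb5, Psmb6 and Psmb7 carry the chymotrypsin-like, caspase-like and trypsin-like cutting sites. All 7 tested had a difference below 0 (median -0.78), 1 was called lower and 0 higher by limma (4 and 0 at an unadjusted p below 0.05). Psmb7 (chromosome 2, 38588036 to 38644087) had 287, 122, 217 and 166 scaled counts in T cell-low 1 to 4. It ranged from 222 to 640 with a median of 485 in T cell-high livers, where T cell-high 4 (222) and 2 (251) were lowest. T cell-low 1 lay above both of them, and the other T cell-low values lay below the whole T cell-high range. The means were 198 ± 71.0 (SD, n = 4) and 448 ± 182 (SD, n = 6), a 2.18-fold difference on the fitted scale (-1.13, SE 0.35, adjusted p = 0.0494 by limma). Psmb7 had -0.32 under the set covariate. Nek6, on the opposite strand, shares 405 of its 3421 exon bases and had a difference of -0.02 (adjusted p = 0.949). No source used here says whether strand was used in counting.

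The other catalytic subunits did not pass. Psmb5 had 1042, 346, 494 and 504 scaled counts in T cell-low 1 to 4 and 687 to 1300 with a median of 937 in T cell-high livers (597 ± 306, SD, n = 4, against 959 ± 216, SD, n = 6). T cell-low 2, 3 and 4 lay below all T cell-high libraries and T cell-low 1 lay among them (-0.78, SE 0.28, adjusted p = 0.0788 by limma). Its 3′ end is shared with Gm3375 in 58.6% of its words. Psmb6 had 1396, 1153, 1201 and 911 in T cell-low, against 1218 to 1798 with a median of 1349 in T cell-high livers (-0.28, SE 0.18, adjusted p = 0.279). The lowest beta difference was that of Psmb2 (-1.14, SE 0.47, adjusted p = 0.111), with 57.7, 21.5, 32.0 and 19.5 against 23.4 to 150 and a median of 74.8. The highest was that of Psmb1 (-0.24, adjusted p = 0.324), with 1657, 1011, 1256 and 1157 against 1378 to 1537 and a median of 1501. Both overlapped between the groups. Psmb3 (-1.02, adjusted p = 0.0576) and Psmb4 (-0.62, adjusted p = 0.160) did not pass. The 3′ end of Psmb3 is shared with Gm4950 and other genes in 64.1% of its words.

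**Figure D3:**
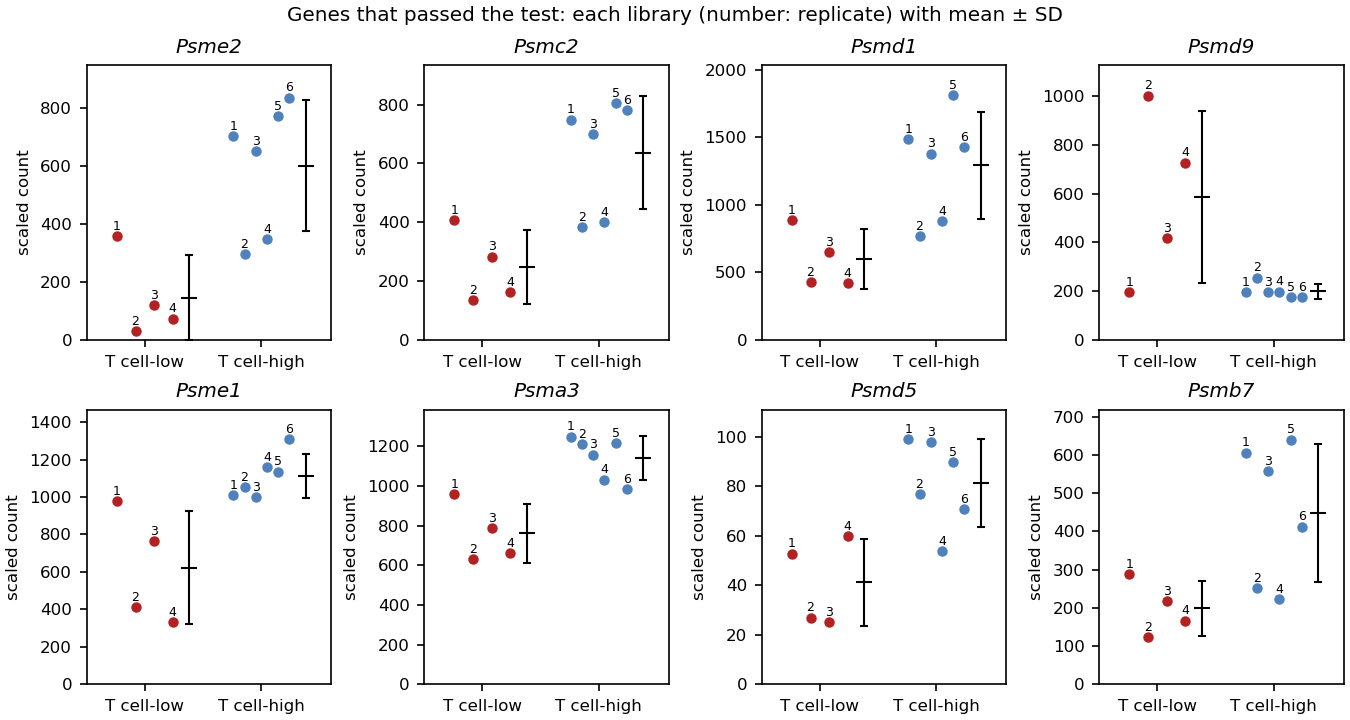
Scaled counts of the 8 called proteasome genes in each library, with 4 T cell-low and 6 T cell-high points and the mean ± SD beside them. Psma3 and Psme1 show no overlap between the groups, and T cell-low 1 is the highest T cell-low point for Psme2 (358) and the lowest for Psmd9 (195).

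The promoters of the catalytic genes Psmb5 and Psmb6 are shown because both hold a core of the antioxidant response element, TGACNNNGC, the site class read by the NRF1 and NRF2 factors (encoded by Nfe2l1 and Nfe2l2). They are 300-base windows of RefSeq on GRCm38.p6, 250 bases before to 50 after the start, 5′ to 3′ on the strand of the gene, with the matches in capitals. Psmb5 is on the minus strand (chr14:54617946-54618245) with TGACGTCGC at position -47, and Psmb6 on the plus strand (chr11:70525107-70525406) with TGACGGAGC at position -9, counted from the start as +1.
Psmb5: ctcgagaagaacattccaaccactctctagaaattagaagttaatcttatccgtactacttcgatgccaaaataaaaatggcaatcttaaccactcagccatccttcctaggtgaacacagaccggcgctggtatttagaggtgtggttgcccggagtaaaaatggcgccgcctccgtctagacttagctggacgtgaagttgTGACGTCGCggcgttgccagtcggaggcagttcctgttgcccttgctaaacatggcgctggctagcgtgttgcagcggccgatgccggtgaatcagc
Psmb6: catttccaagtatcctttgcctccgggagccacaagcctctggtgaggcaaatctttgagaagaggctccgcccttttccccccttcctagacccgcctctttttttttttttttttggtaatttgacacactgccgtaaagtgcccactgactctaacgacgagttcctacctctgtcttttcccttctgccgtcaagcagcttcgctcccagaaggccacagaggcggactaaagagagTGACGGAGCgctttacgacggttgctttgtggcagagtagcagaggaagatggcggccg
Windows were found for 37 of the 45 members (40 windows), and not for Psmb7. On either strand TGACNNNGC matched in 6 of the 40 (15%, against 12.4% of all 32851 windows of the table), and TGAGNNNGC, the other core form, in 13 (32.5% against 17.6%). CCAAT, a common promoter box, matched in 13 (32.5% against 37.4%). A match describes letters only and shows no bound factor.

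The 6 ATPases of the cap form the ring that unfolds substrates. Of these 1 was called lower and 0 higher by limma (1 and 0 at an unadjusted p below 0.05), and the median was -0.24. Psmc2 (chromosome 5, 21785283 to 21803787) had 408, 136, 283 and 163 scaled counts in T cell-low 1 to 4 and 383 to 805 with a median of 725 in T cell-high livers. T cell-high 2 (383) and 4 (399) were the lowest of their group, and T cell-low 1 lay just above them. The means were 248 ± 124 (SD, n = 4) and 636 ± 193 (SD, n = 6), 2.69-fold higher in T cell-high livers on the fitted scale (-1.43, SE 0.33, adjusted p = 0.0234 by limma). Under the set covariate it had -0.79. The promoter window of Psmc2 at its first start (GRCm38.p6, chr5:21785025-21785324, plus strand) is shown as that of the most reduced cap gene, with 1 CCAAT match at -28 in capitals.
Psmc2: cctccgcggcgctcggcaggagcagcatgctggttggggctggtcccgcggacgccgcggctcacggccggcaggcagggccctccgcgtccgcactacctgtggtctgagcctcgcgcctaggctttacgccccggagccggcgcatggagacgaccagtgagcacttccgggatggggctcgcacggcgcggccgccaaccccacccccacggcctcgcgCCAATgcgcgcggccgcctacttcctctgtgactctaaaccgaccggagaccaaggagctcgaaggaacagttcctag
Psmc1 had the highest ATPase difference (0.36, SE 0.21, adjusted p = 0.231). Its values were 1792, 2779, 2851 and 1913 in T cell-low, against 1472 to 2515 with a median of 1660 in T cell-high livers, where T cell-high 2 was highest. The groups overlapped. Psmc3, Psmc4, Psmc5 and Psmc6 lay between -0.30 and -0.08, and none of them passed (adjusted p = 0.314 to 0.783).

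Of the 11 non-ATPase subunits, which bind, trim and position ubiquitinated proteins, 1 was called lower and 0 higher by limma (5 and 0 at an unadjusted p below 0.05), with a median of -0.30. Psmd1, a large scaffold subunit of the base (chromosome 1, 86064387 to 86139151), had 888, 429, 651 and 420 scaled counts in T cell-low 1 to 4. In T cell-high livers it ranged from 769 to 1813 with a median of 1404. T cell-low 1 lay above T cell-high 2 (769) and 4 (883), and T cell-low 2, 3 and 4 lay below the T cell-high range. The means were 597 ± 221 (SD, n = 4) and 1293 ± 394 (SD, n = 6), a 2.18-fold difference on the fitted scale (-1.12, SE 0.29, adjusted p = 0.0295 by limma). The annotation has Gm21972 on the same strand over its end, which holds 72.9% of the words of its last 400 bases, so the counting of Psmd1 is uncertain. Its difference was -0.54 under the set covariate.

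Other non-ATPase subunits lay on both sides of 0. The lowest was Psmd3 (-1.25, SE 0.45, adjusted p = 0.075 by limma), with 436, 247, 206 and 500 scaled counts against 237 to 1305 and a median of 959. T cell-high 2 (237) lay inside the T cell-low range of Psmd3. The highest was Psmd13 (0.46, SE 0.24, adjusted p = 0.183), with 2173, 2963, 2953 and 1907 against 1328 to 2860 and a median of 1646. Here T cell-high 2 was the highest of its group, and under the set covariate the difference was -0.01. Psmd2, the other large scaffold (-0.56, adjusted p = 0.0604), Psmd11, which braces cap to core (-0.72, adjusted p = 0.0613), and Psmd14, the enzyme that removes ubiquitin chains (-0.78, adjusted p = 0.0923), did not pass. Psmd4, a ubiquitin receptor, had -0.03, and Psmd6, Psmd7, Psmd8 and Psmd12 lay between -0.30 and 0.33 without passing (adjusted p = 0.210 to 0.941 with Psmd4).

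The 3 assembly chaperones of the cap base, which leave before the cap is complete, went separate ways. Psmd5 (chromosome 2, 34849734 to 34874968) was lower, with 52.8, 27.0, 25.2 and 59.8 scaled counts in T cell-low 1 to 4 against 53.8 to 99.1 and a median of 83.3. T cell-low 4 lay above the lowest T cell-high value, that of T cell-high 4, and the other T cell-low values lay below it. The means were 41.2 ± 17.7 (SD, n = 4) and 81.4 ± 17.7 (SD, n = 6), a 2.05-fold difference on the fitted scale (-1.04, SE 0.31, adjusted p = 0.0449 by limma). Psmd9 (chromosome 5, 123169413 to 123250131) was higher, with 195, 1001, 418 and 727 in T cell-low 1 to 4 against 174 to 256 and a median of 196. T cell-low 2, 3 and 4 lay above all T cell-high libraries, and T cell-low 1 lay in the middle of them. The means were 585 ± 353 (SD, n = 4) and 199 ± 29.6 (SD, n = 6), 2.49-fold higher in T cell-low livers on the fitted scale (1.32, SE 0.36, adjusted p = 0.0367 by limma). Gm26745 on the opposite strand shares 1849 of the 7248 exon bases of Psmd9, so reads of both cannot be told apart without strand. Psmd10, also known as gankyrin, had -0.25 (SE 0.23, adjusted p = 0.457).

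The promoter of Psmd9 is shown as that of the 1 member called higher (GRCm38.p6, chr5:123227940-123228239, plus strand). This window lies inside the annotated locus given above (123169413 to 123250131) and not at the 5′ end of that locus. Capitals mark GAAAAAGAAA at -159, a match to the core of the interferon-stimulated response element (GAAA, any 2 bases, GAAA), a motif added after seeing the data, and TGACCCCGC at -31, a match to TGACNNNGC.
Psmd9: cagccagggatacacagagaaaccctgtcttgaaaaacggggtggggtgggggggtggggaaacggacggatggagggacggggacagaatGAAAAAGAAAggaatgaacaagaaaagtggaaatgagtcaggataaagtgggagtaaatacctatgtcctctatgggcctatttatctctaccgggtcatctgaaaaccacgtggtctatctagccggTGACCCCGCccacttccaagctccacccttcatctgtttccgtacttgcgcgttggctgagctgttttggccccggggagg
That interferon motif matched, on either strand, in 5 of the 40 member windows (12.5%, against 3.44% of all windows), those of Psmb3, Psmd4, Psmd9, Psme1 and Psmg4. Of these 5 genes Psme1 was called lower, Psmd9 was called higher, and the other 3 did not pass.

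**Figure D4:**
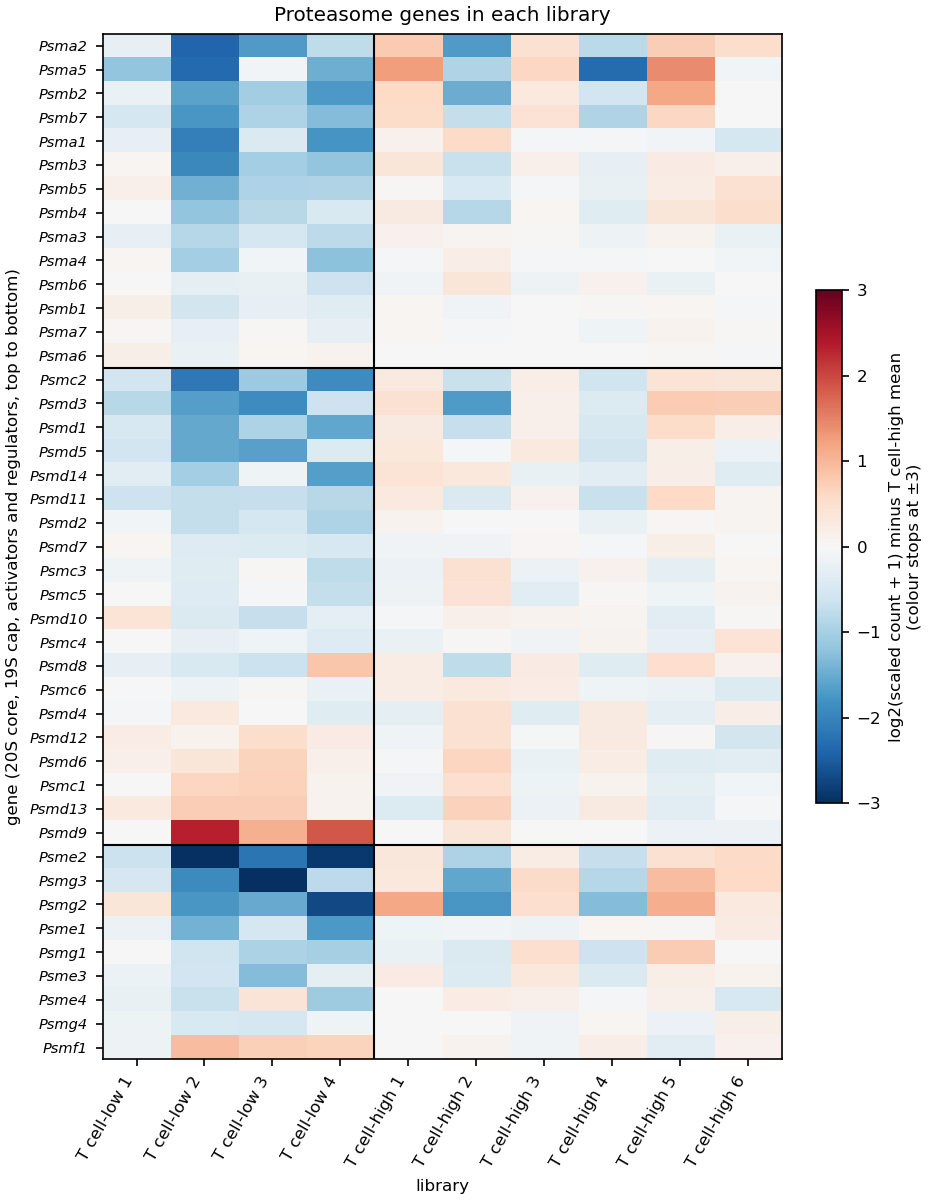
Log2 difference of each of the 43 tested proteasome genes from its T cell-high mean (colour) in each of the 10 libraries (columns), ordered by class. Psme2 is lowest in T cell-low 2 (31.4 scaled counts), Psmd9 is high in T cell-low 2 to 4 (418 to 1001), and T cell-high 2 and 4 lie low for Psma2 (271 and 509).

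The largest fitted difference of the 43 members was that of the activator gene Psme2. Of the 4 activators tested 2 were called lower and 0 higher by limma (3 and 0 at an unadjusted p below 0.05), and the median was -0.78. Both called genes encode PA28, the interferon-induced ring of alpha (Psme1) and beta (Psme2) subunits that caps the core in antigen processing, and they are neighbours on chromosome 14. Psme1 (55578123 to 55581529) had 978, 411, 765 and 333 scaled counts in T cell-low 1 to 4 against 998 to 1309 and a median of 1093. Every T cell-low value lay below every T cell-high value, T cell-low 1 by a small margin. The means were 622 ± 302 (SD, n = 4) and 1110 ± 118 (SD, n = 6), a 1.95-fold difference on the fitted scale (-0.96, SE 0.27, adjusted p = 0.0403 by limma). The set covariate left the difference of Psme1 at -0.96, though it no longer passed. Psma3 and Psme1 were the 2 members of 43 (4.65%) with no overlap in the lower direction, which 4.02% of all tested genes showed, and 0 members had none in the higher direction (3.37% of all).

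Psme2 (chromosome 14, 55587441 to 55591113) had 358, 31.4, 121 and 73.5 scaled counts in T cell-low 1 to 4 against 295 to 835 and a median of 677. T cell-low 1 lay above T cell-high 2 (295) and 4 (346), and T cell-low 2, 3 and 4 lay below all T cell-high libraries. The means were 146 ± 146 (SD, n = 4) and 600 ± 226 (SD, n = 6), 5.51-fold higher in T cell-high livers on the fitted scale (-2.46, SE 0.54, adjusted p = 0.0196 by limma). Psme2 had -1.66 under the set covariate. Psme2b and Gm7928 hold 65.7% of the words in its last 400 bases, so reads of these copies may be counted with it. Psme3, the nuclear member of the family, had -0.58 (SE 0.26, adjusted p = 0.135). Psme4, which encodes the activator PA200, had the highest difference of the class (-0.39, SE 0.26, adjusted p = 0.298), with 635, 466, 955 and 350 against 526 to 857 and a median of 775. The groups overlapped for Psme4.

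The promoters of the PA28 pair are shown together as those of 2 neighbouring genes that were both called lower. Psme1 (GRCm38.p6, chr14:55578244-55578543, plus strand) holds TTTCGCTTTC at +10, in capitals, which matches the letters of the interferon motif on the other strand. Psme2 (chr14:55591052-55591351, minus strand) had none of the 4 motifs in this window, nor in its second window, which says only that these letters are not there.
Psme1: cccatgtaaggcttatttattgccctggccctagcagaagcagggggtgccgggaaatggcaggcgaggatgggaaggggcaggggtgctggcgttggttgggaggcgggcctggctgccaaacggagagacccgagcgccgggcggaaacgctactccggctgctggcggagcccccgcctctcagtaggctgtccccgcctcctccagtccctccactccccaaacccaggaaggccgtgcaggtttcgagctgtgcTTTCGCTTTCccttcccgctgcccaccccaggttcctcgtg
Psme2: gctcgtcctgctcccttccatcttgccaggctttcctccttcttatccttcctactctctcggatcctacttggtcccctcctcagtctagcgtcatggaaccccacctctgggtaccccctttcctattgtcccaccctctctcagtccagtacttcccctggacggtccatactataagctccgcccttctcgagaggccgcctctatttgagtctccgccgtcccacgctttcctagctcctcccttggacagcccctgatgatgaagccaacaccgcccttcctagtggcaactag

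The core regulators did not pass as single genes. Of the 5 tested limma called 0 lower and 0 higher (1 and 1 at an unadjusted p below 0.05), with a median of -0.63. Psmg3, a chaperone of core assembly, had the lowest difference (-1.68, SE 0.60, adjusted p = 0.0757), with 124, 46.2, 14.3 and 102 scaled counts against 58.9 to 333 and a median of 241. T cell-high 2 (58.9) and 4 (96.7) lay within the T cell-low range. Psmf1, the inhibitor PI31, had the highest (0.54, SE 0.23, adjusted p = 0.116), with 198, 420, 366 and 353 against 177 to 253 and a median of 230. For Psmf1 T cell-low 2, 3 and 4 lay above all T cell-high libraries and T cell-low 1 lay among them. The other core chaperones Psmg1, Psmg2 and Psmg4 had -0.63, -1.40 and -0.31.

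Members also differed among the T cell-high libraries. No label gives the split used here, of T cell-high 2 and 4 from the others. It was drawn from these same data, so the counts describe it and do not test it. T cell-high 2 and 4 lay below the 4 other T cell-high libraries in 19 of the 43 members (44.2%, against 21.8% of all genes tested) and above them in 8 (18.6% against 20.9%). By class they were below in 8 and above in 1 of the 14 core genes, below in 6 and above in 7 of the 20 cap genes, and below in 5 and above in 0 of the 9 activators and regulators. The ratio of the highest to the lowest T cell-high value ran from 1.06 for Psma6 and 1.12 for Psmb1 to 6.42 for Psmb2, 7.98 for Psmg2 and 15.2 for Psma5. Psma5 had 5.82 to 88.2 scaled counts in T cell-high and 5.62 to 30.9 in T cell-low livers. Gm12989 and Gm8394 share 53.8% of the words in the last 400 bases of Psma5, so reads of these copies may be mixed with its own. The difference of Psma5, -1.26, turned to 0.34 under the set covariate. The members with these widest ratios had low T cell-high means, 78.3 scaled counts for Psmb2, 55.1 for Psmg2, a core assembly chaperone, and 45.2 for Psma5. Wide ratios also occurred at higher means, 5.65 for Psmg3 (mean 206), 5.64 for Psma2 (mean 1048) and 5.50 for Psmd3 (mean 889). In each of these genes T cell-high 2 and 4 lay below the other T cell-high libraries.

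The immunoproteasome genes, which replace the catalytic beta subunits, were compared with their constitutive partners. Psmb8 had 113, 28.0, 30.3 and 39.6 scaled counts in T cell-low 1 to 4 against 112 to 241 and a median of 196 (-1.99, SE 0.37, adjusted p = 0.0121 by limma). Psmb10 had 296, 97.2, 132 and 123 against 334 to 552 and a median of 362, with no overlap (-1.41, SE 0.29, adjusted p = 0.0170). Psmb9 had 33.5, 0, 3.29 and 0 against 7.77 to 40.4 and a median of 29.5 and did not pass (adjusted p = 0.0569). As a log2 ratio within each library, Psmb8 to Psmb5 averaged -3.60 ± 0.32 (SD, n = 4) for T cell-low and -2.38 ± 0.13 (SD, n = 6) for T cell-high livers, without overlap (difference -1.22, p = 0.00952, adjusted over 3 ratios 0.0286, exact two-sided permutation test). All 4 T cell-low libraries, T cell-low 1 included at -3.19, were below the lowest T cell-high ratio of -2.60. With 210 regroupings this test can give no two-sided p below 0.00952. The ratio of Psmb9 to Psmb6 differed by -2.50 (p = 0.0476, adjusted 0.0714, exact permutation test), and that of Psmb10 to Psmb7 by -0.28 (p = 0.552, adjusted 0.552, exact permutation test). Psmb9 was at 0 in T cell-low 2 and 4 and at 3.29 in T cell-low 3, so the size of its ratio depends on the added count of 1. A ratio shows unequal change of the 2 genes and not that either was constant.

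**Figure D5:**
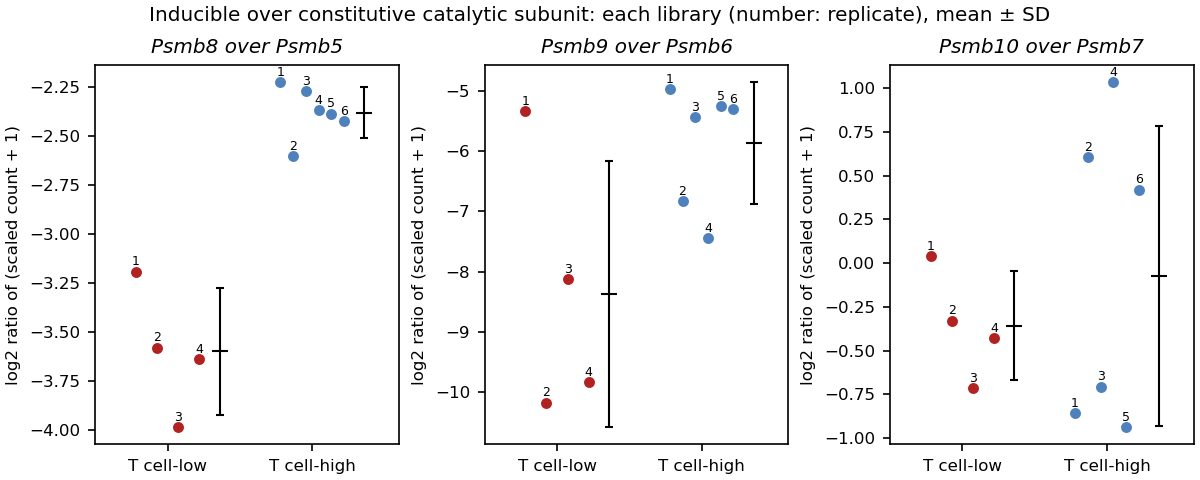
Log2 ratio of each immunoproteasome gene to its constitutive partner per library (points; log2(scaled count + 1) of one minus that of the other), by group. Psmb8 to Psmb5 lies at -3.98 to -3.19 in T cell-low and at -2.60 to -2.23 in T cell-high libraries, whereas Psmb10 to Psmb7 overlaps between the groups.

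Interferon response genes moved beside the PA28 and immunoproteasome genes. Of 10 such genes tested 5 were called lower and 0 higher by limma (6 and 0 at an unadjusted p below 0.05), with a median of -1.40. Their summed level was 364 to 1406 scaled counts in T cell-low, against 1204 to 1961 in T cell-high livers, T cell-low 1 again being the highest T cell-low library. Their part in the result was not tested. Neutrophil markers also separated the groups (4 of 4 tested of 10 listed called higher, summed level 640 to 1737 against 42.6 to 211). The summed stellate cell and fibroblast markers did not overlap either (3163 to 4715 against 2188 to 3069). Most of that sum was Dcn, which overlapped by itself (2509 to 4406 against 1723 to 2706). Of these 6 markers 3 had a difference below 0 and 3 above, and limma called 0 (0 lower and 1 higher at an unadjusted p below 0.05). Immediate early genes (1320 to 8067 against 753 to 2301) and erythroid genes (43163 to 98228 against 19681 to 51936) overlapped in their sums, with 2 of 9 and 2 of 6 tested called higher. Of the hepatocyte markers 2 of 6 were called higher and 0 lower. Of the 5 endothelial markers limma called 2 higher and 0 lower (2 and 2 at an unadjusted p below 0.05). Kdr (-0.63) and Clec4g (-0.74) were the endothelial markers on the lower side, and the endothelial sums overlapped (2056 to 2364 against 1778 to 2607). For T and NK cells the sums were 31.8 to 83.7 and 44.8 to 80.6, and for Kupffer cells 6517 to 10461 and 3331 to 13042. No marker of these lists was at 0 in every library. Their part was not tested.

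Other genes of the pathway were taken from lists of related functions. Of 12 further proteasome-associated genes 1 was called lower and 0 higher by limma (1 and 1 at an unadjusted p below 0.05), with a median of 0.11. It was Pomp, the maturation protein of the core, with 3434, 423, 957 and 1111 scaled counts in T cell-low 1 to 4 against 1440 to 5172 and a median of 4485 (-1.66, SE 0.50, adjusted p = 0.0470). T cell-high 2 (1440) and 4 (2721) were the lowest of their group and T cell-low 1 lay above both. Among 10 genes of ubiquitin shuttles and the p97 segregase 1 was lower, Ubqln1 (-0.98, adjusted p = 0.0429), and 1 higher, Ddi2 (1.21, adjusted p = 0.0429), which encodes the protease that activates NRF1. Among 6 genes of ubiquitin supply 1 was lower, Uba6, an activating enzyme (-1.72, adjusted p = 0.0258), and 0 higher (1 and 0 unadjusted).

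Of 6 genes of the NRF factors and their partners, 1 was called lower and 1 higher by limma (1 and 2 at an unadjusted p below 0.05). The other 4 did not pass: Keap1 (-0.14), Mafg (-0.19), Mafk (1.07) and Maff (1.35). Nfe2l1, which encodes NRF1, had 603, 440, 416 and 310 scaled counts in T cell-low 1 to 4 against 612 to 837 and a median of 686, with no overlap (-0.73, SE 0.20, adjusted p = 0.0378 by limma). Nfe2l2, which encodes NRF2, had 808, 1205, 1359 and 1654 against 413 to 772 and a median of 544, also with no overlap (1.09, SE 0.23, adjusted p = 0.0191). Of the 7 NRF2 target genes tested 3 were lower and 1 was higher. Gclc (-1.62, adjusted p = 0.0170) and Nqo1 (-1.09, adjusted p = 0.0387) were lower, as was Gsta1, which is listed at 0 in all T cell-low libraries and also in T cell-high 2 (adjusted p = 0.0206). Hmox1, the haem oxygenase, was higher (1.25, adjusted p = 0.0396). Under the set covariate limma called none of these (0 of all genes), and the differences were -0.93 for Nfe2l1 and 0.74 for Nfe2l2.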

How the data were processed

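Mouse liver RNA in 10 libraries was read with a QuantSeq 3′ FWD kit, per the labels' protocols. The deposited table holds a signal per gene and library, gene counts scaled by the authors. STAR, DESeq2 and mm10 are named in the submitters' processing notes, without versions. The sources used here do not name the counter, the annotation or the use of strand. Whole reads could not be read back from the values, so the test named in the design for scaled values was used and depth in reads is unknown.

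Log2(scaled count + 1) of 11110 genes with a mean of at least 10 was compared with limma 3.58.1 in R 4.3.3, with a variance trend and group as the only term. P-values were Benjamini-Hochberg adjusted over these genes, called below 0.05, with 13.1 moderated degrees of freedom. The test was checked on simulated data with independent spread and with planted differences larger than those of most called members. That check does not cover smaller differences or spread shared by libraries. Ratios were compared by exact two-sided permutation over 210 regroupings (scipy 1.17.1, Python 3.11.15). Figures were drawn with matplotlib 3.10.9. Class values per library are medians over tested members.

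Values in all libraries are given for called members, the catalytic subunits and the members with the highest and lowest difference of each class, and other genes are named if called. Psma5, Psmd4 and others were named after their values were seen. Members and lists were chosen with earlier results of these data known. Positions and the sharing of 3′ ends (at least 20% of the 50-base words of the last 400 bases) are from GENCODE vM21 on GRCm38, the assembly called mm10. Psma4 (26.4%) and Psmd2 (25.7%) also reached this share. Alternatives covered scaling, pseudocount, filter, moderation, a replicate block, each library left out and, chosen after seeing the data, the library set as a covariate.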

Additional observations from a re-analysis of the deposited data

Results flagged for a closer look

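In 4 of the 86 sets of values (43 genes in each of the groups), 1 library lay apart from the rest of its group by Dixon's criterion, where chance alone gives about 1 in 20. Psma4 had 2777 scaled counts in T cell-high 2 and 2303 to 2432 elsewhere in its group. Psmd9 had 256 in the same library against 174 to 198. Psmd7, a cap subunit, had 1692 in T cell-low 1 and 1162 to 1223 elsewhere in its group. Psme4 had 526 in T cell-high 6 against 720 to 857.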

How the results depend on the processing

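The 8 called members kept their direction in all 20 alternatives, and the calls did not. The number called lower, 7, became 11 after rescaling to equal totals, 4 after rescaling to equal upper quartiles, 4 with no filter on low values, 2 with the replicate block and 0 with the library set as a covariate. It ranged from 0 to 21 over the runs that left out 1 library, in which the number over all genes ranged from 68 to 1911. The number called higher, 1, became 0 with the replicate block and 0 with the covariate by limma, and ranged from 0 to 2 without 1 library. Rescaling to equal totals moved the median of all genes from 0.00 to -0.12 and the split of all calls from 821 lower and 599 higher to 1068 and 421. It turned the log2 difference of Psma6 to -0.0859. Leaving out 1 library gave -0.0129 to 0.114 for Psma6, -0.136 to 0.0879 for Psmd4 and -0.451 to 0.0451 for Psmd8. The covariate moved the core median from -0.70 to -0.27 and turned Psma5 to 0.342, Psmd6 to -0.106, Psmd8 to 0.435, Psmd12 to -0.0757, Psmd13 to -0.012 and Psmg2 to 0.119. The covariate leaves 2 T cell-high libraries as comparators by construction, and the causes of the other changes were not tested. Replicate numbers did not pair the libraries: same-numbered libraries had correlations of 0.10, 0.21, -0.10 and -0.15, and only T cell-low 2 correlated best with its own number. The replicate block gave 193 calls over all genes against 1420, and 0.0324 for the log2 difference of Psmd8. At an unadjusted p below 0.05 it gave 17 members lower and 1 higher, and 2682 of all 11110 genes in either direction.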

Other observations

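As a share of the scaled total of a library, the 45 proteasome genes together held 0.574%, 0.418%, 0.472% and 0.367% in T cell-low 1 to 4 and 0.572% to 0.6246% in the T cell-high libraries. T cell-low 1 lay at the lower end of the T cell-high range, and T cell-low 2, 3 and 4 lay below it. This share is weighted toward the genes with the most reads and was not tested.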
